A study of Mus musculus with 34 samples.

Results

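Chrna6 and Chrna7 encode subunits of nicotinic acetylcholine receptors, the proteins that nicotine binds, and Ache encodes acetylcholinesterase, the enzyme that splits acetylcholine. They were chosen by name, as 3 of the 8251 genes that the platform annotation names, and every probe set annotated with only 1 of these symbols was taken. Each gene had 1 such probe set among the 12422 on the array (66 controls apart): 96996_at for Chrna6, 101131_at for Chrna7 and 104650_at for Ache. Neocortical and hippocampal RNA of male mice was measured on 34 Affymetrix arrays in 6 groups. The mice received intraperitoneal injections at postnatal day 23 and were killed when 30 days old. The groups were saline (6 arrays per region), kainate at 15 mg/kg (5 arrays per region) and nicotine at 10 mg/kg (6 arrays per region), and every injection was given 3 times at 2 h intervals. The mice were those that survived the injections, and neither strain nor genotype is given in the sources used here.

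Nicotinic receptors are cation channels built of subunits around a pore that opens when acetylcholine or nicotine binds. The subunit encoded by Chrna7 can form a channel on its own, passes calcium, and is known from hippocampal interneurons and from glutamate terminals. The subunit encoded by Chrna6 is known above all from midbrain dopamine neurons and other catecholamine cells, and from the retina. Acetylcholine reaches both regions mainly through axons of the basal forebrain, whose cell bodies lie outside the dissected tissue. Acetylcholinesterase breaks acetylcholine down in the synaptic cleft, and its RNA is made by cholinergic neurons and by cells that receive their input.

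The values are signals on a linear scale, for which the arrays had been scaled to a common mean. Differences are given on the scale of log2(signal + 16), drug minus saline or hippocampus minus neocortex, with a 95% interval. Adding 16 makes the changes of dim probe sets look smaller. In tissue samples such as these, fewer cells that express a gene and less RNA per cell cannot be told apart. The dimmest 30% of probe sets by mean log2 signal were not tested (below a signal of 129.7 over all 34 arrays). A call below means a limma adjusted p under 0.05. All 3 probe sets were tested in all 12 comparisons, 8695 probe sets at a time.

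No call was made for any of the 3 genes. limma called 0 of the 36 differences (3 genes in 12 comparisons), and 0 of them had an unadjusted p under 0.05. The smallest unadjusted p was 0.186 and the smallest adjusted p was 0.542. In none of the 9 direct comparisons of 2 groups did the arrays of 1 group lie wholly above those of the other. The share of all tested probe sets that was called set the background: 0.0115% for kainate and 0% for nicotine against saline in the neocortex, 2.79% and 0% in the hippocampus. For hippocampus against neocortex it was 10.5% with saline, 13% with kainate and 9.61% with nicotine. The share whose groups did not overlap was 0.564% for each drug against saline in the neocortex, 3.5% for kainate and 0.15% for nicotine in the hippocampus. It was 0.506% and 2.92% for kainate against nicotine (neocortex, hippocampus), and 6.21%, 9.99% and 5.98% between regions with saline, kainate and nicotine.

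**Figure D1:**
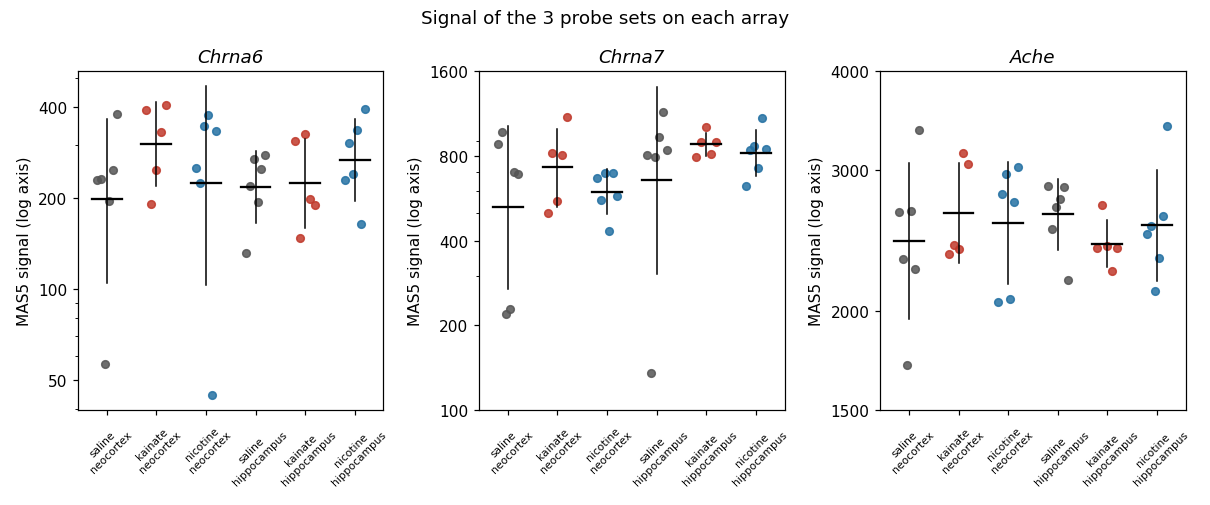
MAS5 signal (log axis) of the probe sets for Chrna6, Chrna7 and Ache on each of the 34 arrays, by group; each point is 1 array, the horizontal bar is the mean of log2(signal + 16) turned back into signal, and the vertical line is ± 1 SD on that scale. The groups overlap in every panel, and single low arrays stand out for Chrna7 in the saline hippocampus (135.7) and for Chrna6 in the nicotine neocortex (44.6).

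Chrna7 was the receptor subunit with the clearer signal, from 135.7 to 1140 over the 34 arrays, with a median of 799.1. In the saline neocortex the lowest, median and highest of 6 arrays were 220, 696.2 and 971.3. In the nicotine neocortex they were 431.9, 620.2 and 697.1. The kainate neocortex arrays read 500.6, 821, 553.7, 806 and 1098.1. The drug arrays of the neocortex thus lay inside the saline range except for 1 kainate array above it.

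In the saline hippocampus the lowest, median and highest signals of Chrna7 were 135.7, 821.4 and 1140. The nicotine hippocampus gave 626.4, 841.1 and 1088.3. The kainate hippocampus arrays read 793.6, 895.3, 1012.5, 808.1 and 892, the tightest of the 6 groups with 880.3 ± 87.4 (SD, n = 5). All drug arrays of the hippocampus lay inside the saline range, which 1 low array stretched downward. The nearest saline array to that one read 793.2.

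The nicotine difference of Chrna7 from saline was 0.17 ± 0.31 (SE) in the neocortex, with an interval from −0.48 to 0.82. In the hippocampus it was 0.31 ± 0.33, from −0.38 to 0.99. Averaged over both regions it was 0.24 ± 0.24, from −0.25 to 0.73, which as a ratio is 1.18, from 0.84 to 1.66. The kainate difference was 0.45 ± 0.33 in the neocortex (−0.23 to 1.13) and 0.40 ± 0.35 in the hippocampus (−0.31 to 1.12). The kainate and nicotine comparisons share their saline arrays, so they are not independent. The limma adjusted p-values ran from 0.657 to 0.925 over these 5 comparisons, and each interval reaches both below 0 and well above it.

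The drug differences of Chrna7 were smaller, or changed sign, without any 1 of 3 low saline arrays of the same region, picked here for their low values, so that leaving one out had to lower them. These were saline hippocampus replicate 2 (135.7) and saline neocortex replicates 3 (220) and 4 (227.9), the only arrays under 50% of the gene's median. Without saline hippocampus replicate 2 the hippocampal differences were −0.026 for kainate and −0.12 for nicotine. Without saline neocortex replicate 3 the neocortical ones were 0.21 for kainate and −0.069 for nicotine, and without replicate 4 they were 0.22 and −0.060. Adjusted p-values (limma) of these 6 differences lay between 0.958 and 0.982, against 0.55 to 0.982 over all fits with a saline array left out. Kainate minus saline in the neocortex stayed positive with any 1 array left out (0.21 to 0.62), as did nicotine over both regions (0.024 to 0.33). All 3 low arrays belonged to a cluster of 24 arrays, formed after seeing the data from the bacterial hybridization controls. In the other cluster, of 10 arrays, the lowest Chrna7 signal was 431.9. With the cluster as a block the differences were 0.48 for kainate and 0.12 for nicotine in the neocortex, and 0.45 and 0.25 in the hippocampus. Within the larger cluster, whose values hold the 3 low saline arrays, they were 0.53 for kainate (5 arrays against 5) and 0.26 for nicotine (3 against 5) in the neocortex, and 0.68 (4 against 4) and 0.57 (3 against 4) in the hippocampus. Within the smaller cluster the nicotine difference in the hippocampus was −0.23 (3 against 2), and the other comparisons had at most 1 array in an arm.

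**Figure D2:**
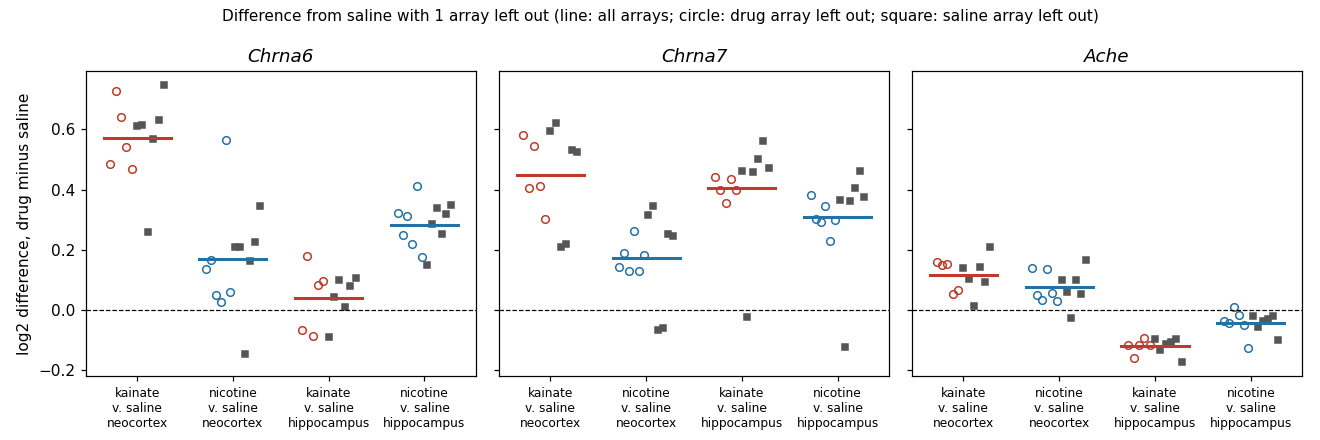
Difference from saline on the scale of log2(signal + 16) for Chrna6, Chrna7 and Ache when 1 array is left out; the line is the value with all arrays, open circles leave out a drug array and squares a saline array. For Chrna7 in the hippocampus 1 square lies apart for each drug, at −0.026 for kainate and −0.12 for nicotine, and for Ache the points lie closer together.

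By mean signal, Chrna7 was highest in the kainate hippocampus (880.3), then the nicotine hippocampus (830.6), the saline hippocampus (773.7), the kainate neocortex (755.9), the saline neocortex (615.2) and the nicotine neocortex (604.1). On the log2 scale the saline hippocampus and the kainate neocortex change places, at 9.40 and 9.54. So do the saline and nicotine neocortex, at 9.09 and 9.26, which leaves the saline neocortex lowest. None of the neighbours in this order that were compared differed beyond their spread. Hippocampus minus neocortex was 0.31 ± 0.34 (SE) with saline, 0.27 ± 0.37 with kainate and 0.45 ± 0.34 with nicotine. The nicotine arrays overlapped in the range from 626.4 to 697.1, where the lowest hippocampal and highest neocortical arrays lie. That difference had a limma adjusted p of 0.542 with the spread of all 34 arrays. With the spread of the 12 nicotine arrays alone the adjusted p was 0.0817, the lowest of 11 other settings (0.0817 to 0.628).

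Chrna6 was dim, from 44.6 to 407.8 over the 34 arrays with a median of 247.6, and 2 arrays lay below the filter signal of 129.7. In the saline neocortex the lowest, median and highest signals were 56.2, 231.3 and 380. In the nicotine neocortex they were 44.6, 293.5 and 376.7. The kainate neocortex arrays read 391.9, 191.6, 247.6, 332.6 and 407.8, so 2 of the 5 lay above every saline array.

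In the saline hippocampus Chrna6 had signals of 131.7 (lowest), 235 (median) and 278.6 (highest). In the nicotine hippocampus these were 164.7, 272.1 and 395.2, with 3 of 6 arrays above the highest saline one. The kainate hippocampus arrays read 308.4, 148, 326, 198.7 and 190.5. The groups overlapped in both regions.

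Nicotine minus saline for Chrna6 was 0.17 ± 0.42 (SE) in the neocortex, 0.28 ± 0.25 in the hippocampus and 0.22 ± 0.25 (−0.29 to 0.74) over both regions. Kainate minus saline was 0.57 ± 0.44 in the neocortex, the highest of the 36 differences, with an interval from −0.34 to 1.48. In the hippocampus it was 0.04 ± 0.26 (−0.51 to 0.59). The test of whether the kainate difference varied between regions gave −0.53 ± 0.53 (hippocampus minus neocortex, limma adjusted p = 0.815). Without saline neocortex replicate 3, the array at 56.2, the neocortical differences were 0.26 for kainate and −0.15 for nicotine. The same array was the lowest of its group for Chrna7 (220) and Ache (1710.9) too. Without it the Ache differences in the neocortex were 0.014 for kainate and −0.028 for nicotine. The neocortical differences of the 3 genes from saline thus share this low array and are not separate observations. Without nicotine neocortex replicate 5, the array at 44.6, the nicotine difference was 0.57 and kainate minus nicotine there went from 0.41 to 0.0069. With the hybridization cluster as a block the Chrna6 differences were 0.54 for kainate and 0.22 for nicotine in the neocortex, and 0.039 and 0.28 in the hippocampus. Within the larger cluster they were 0.63 and 0.46 in the neocortex, and 0.22 and 0.52 in the hippocampus. Within the smaller cluster the nicotine difference in the hippocampus was −0.087.

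The order of Chrna6 by mean signal ran from the kainate neocortex (314.3), through the nicotine hippocampus (278.6), nicotine neocortex (263.2), kainate hippocampus (234.3) and saline hippocampus (224.03), to the saline neocortex (223.6). The saline regions differed by 0.13 ± 0.36 (SE) and the kainate regions by −0.41 ± 0.39. With nicotine the regions differed by 0.24 ± 0.36. None of these differences was called, and the sign of the region difference was not the same in the 3 treatments.

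Midbrain dopamine and other catecholamine markers, the cells Chrna6 is known from, had overlapping summed signals in all groups. Of 7 such markers 5 were measured and 4 lay above the filter level. Their summed signal ran from 1248 to 1698 in the saline neocortex and from 1277 to 1705 in the saline hippocampus. With nicotine it ran from 992.3 to 1658 and from 1071 to 1722, and with kainate from 1142 to 2658 and from 1149 to 1823 (neocortex, hippocampus). None of the tested markers was called in any comparison, where 0% to 13% of all probe sets were called. Of 8 markers of cholinergic neurons 3 were measured and 0 lay above the filter level. Slc18a3, the vesicular acetylcholine transporter, read 12 to 71.1 over all groups.

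Ache had the highest precision of the 3, with signals from 1710.9 to 3406.2 over the 34 arrays and a median of 2544. In the saline neocortex the lowest, median and highest signals were 1710.9, 2489 and 3372.7. The nicotine neocortex gave 2051.1, 2770 and 3025.6. The kainate neocortex arrays read 2355.5, 2420.4, 2389.8, 3155.3 and 3052. Both drug groups lay inside the saline range.

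In the saline hippocampus Ache read 2185.4 (lowest), 2731 (median) and 2870.4 (highest). In the nicotine hippocampus the same values were 2117.1, 2523 and 3406.2. The kainate hippocampus arrays read 2396.7, 2710.8, 2411.7, 2244.1 and 2394.4, the tightest group at 2432 ± 170 (SD, n = 5). Of these, 4 lay below the saline array that was second lowest, at 2536.

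Nicotine minus saline for Ache was 0.07 ± 0.14 (SE) in the neocortex, a ratio of 1.05 (0.859 to 1.29), and −0.04 ± 0.10 in the hippocampus, a ratio of 0.969 (0.837 to 1.12). Over both regions it was 0.01 ± 0.09, with an interval from −0.17 to 0.20. As a ratio the mean over both regions is 1.01, from 0.891 to 1.15, and the regional intervals are wider. Kainate minus saline was 0.12 ± 0.15 in the neocortex (−0.19 to 0.42) and −0.12 ± 0.11 in the hippocampus (−0.34 to 0.10). The difference between these kainate effects was −0.24 ± 0.19 (limma adjusted p = 0.756). Hippocampus minus neocortex was 0.11 ± 0.13 with saline, −0.13 ± 0.14 with kainate and −0.01 ± 0.13 with nicotine. The group means lay close together, from 2675 in the kainate neocortex, through 2652, 2609, 2588 and 2497 (saline hippocampus, nicotine neocortex, nicotine hippocampus, saline neocortex), to 2432 in the kainate hippocampus. None of the pairs compared differed beyond its spread.

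**Figure D3:**
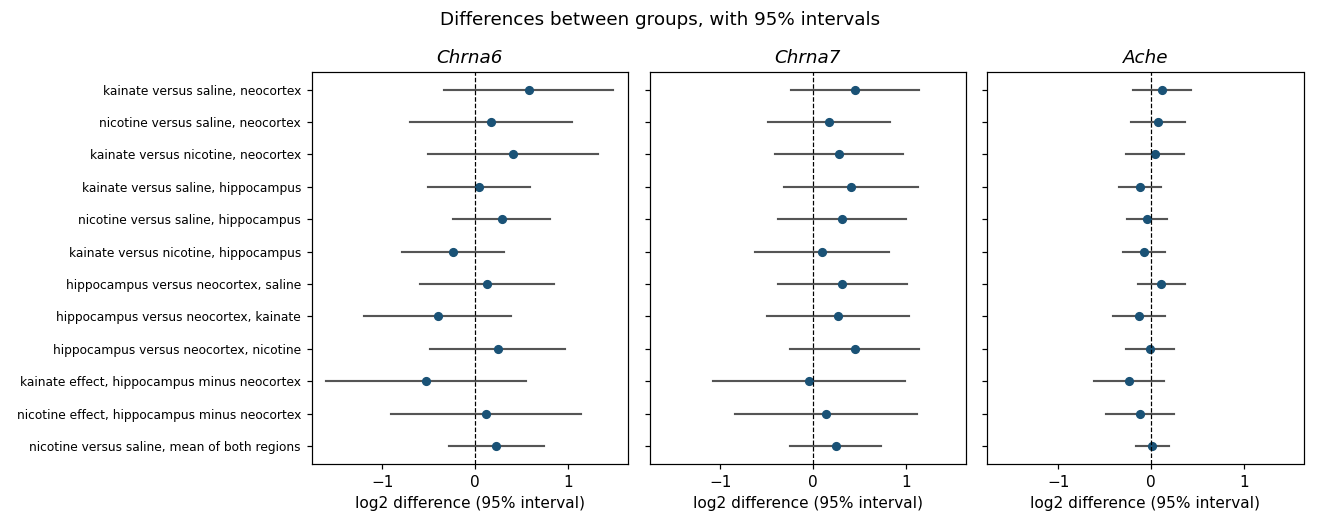
Differences on the scale of log2(signal + 16) for Chrna6, Chrna7 and Ache in the 12 comparisons; points are limma estimates and lines are 95% intervals. Every interval holds 0, and those of Ache are the narrowest, with standard errors from 0.09 to 0.19 against 0.24 to 0.51 for Chrna7 and 0.25 to 0.53 for Chrna6.

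Kainate against nicotine gave no call either. In the neocortex the differences were 0.28 ± 0.33 (SE) for Chrna7, 0.41 ± 0.44 for Chrna6 and 0.04 ± 0.15 for Ache, with 0.0345% of probe sets called. In the hippocampus they were 0.10 ± 0.35, −0.24 ± 0.26 and −0.08 ± 0.11, with 2.42% called. The intervals in the hippocampus ran from −0.62 to 0.82 for Chrna7, from −0.79 to 0.31 for Chrna6 and from −0.30 to 0.15 for Ache. The test of whether the nicotine effect varied between regions gave 0.14 ± 0.48 for Chrna7, 0.11 ± 0.50 for Chrna6 and −0.12 ± 0.18 for Ache, and called 0% of all probe sets. For kainate the same test gave −0.04 ± 0.51 for Chrna7 and called 0.794% of probe sets.

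Of 4 markers of hippocampal pyramidal cells and dentate granule cells, 3 were called higher and 0 lower in the hippocampus than in the neocortex with saline (5.36% of all probe sets were called higher). With kainate 2 were called higher and 1 lower (6.81% and 6.22% of all), and with nicotine 3 higher and 1 lower (4.69% and 4.92%). Their summed signal in the hippocampus and in the neocortex was 8654 to 10655 and 5375 to 6001 with saline, 7122 to 8691 and 6856 to 7391 with kainate, and 8217 to 11551 and 5158 to 6168 with nicotine. The kainate regions thus overlapped in this sum. In the neocortex the sum with kainate lay wholly above that with saline. Of the 3 markers tested there, 0 were called for kainate against saline. Against nicotine 1 was called higher, where 0.0345% of all probe sets were called in either direction. Markers of other cells changed with kainate in the hippocampus. All 7 measured microglia and macrophage markers were called higher (1.84% of all probe sets were), and their summed signal ran from 33199 to 53905 with kainate against 12096 to 13195 with saline. Of 9 interneuron markers, among the cells known to carry Chrna7 receptors, 3 were called lower (0.955% of all probe sets were), and the summed signal of the 9 was 40933 to 47461 against 55212 to 59222. Of 3 measured astrocyte markers 2 were called higher, with sums of 45562 to 52007 against 24880 to 31151, and 1 of the 4 pyramidal and dentate markers was called lower. In the kainate neocortex 1 of the 3 astrocyte markers was called higher (0.0115% of all probe sets were). There 0 of the 7 microglia and macrophage markers were called, though their sums of 13820 to 16345 against 11762 to 13500 did not overlap. Chrna7 read 793.6 to 1012.5 in the kainate hippocampus, inside the saline range. The part of the changed cell markers in the member values was not tested. With nicotine 0 markers of any list were called against saline in either region, where 0% of all probe sets were called.

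The spread of Chrna7 was wide in the saline groups, which hold the 3 low arrays, with SDs of 0.93 (neocortex) and 1.07 (hippocampus) on the log2 scale. It was 0.45 and 0.14 in the kainate groups, and 0.26 in both nicotine groups. Pooled within groups over the 34 arrays its SD was 0.65, where the median of 1022 probe sets of similar level (within 0.25) was 0.28, and 98.1% of them varied less. For Chrna6 the SD was 0.65 against a median of 0.53 over 852 similar probe sets, with 74.4% lower. For Ache it was 0.23 against 0.19 over 560, with 69.1% lower.

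**Figure D4:**
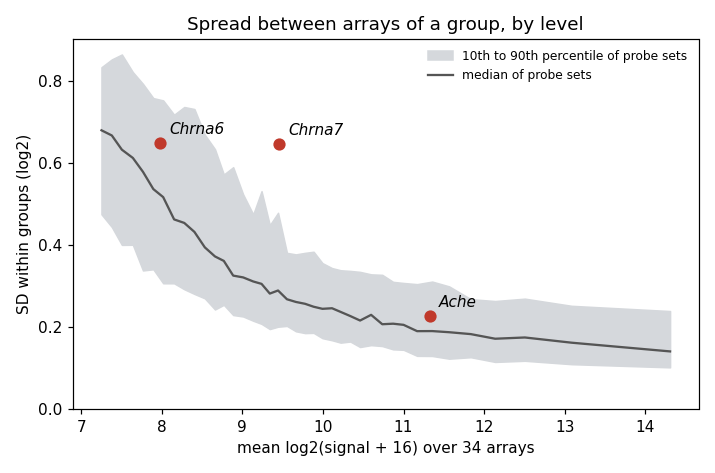
SD within groups (log2) against mean log2(signal + 16) over 34 arrays; the line is the median and the band the 10th to 90th percentile of tested probe sets in 40 bins of level, and the points are the 3 genes. Chrna7 lies above the band, at an SD of 0.65, while Chrna6 and Ache lie inside it.

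The wider cholinergic list held 38 genes of nicotinic and muscarinic receptors, of acetylcholine synthesis, transport and breakdown, and of proteins that chaperone or anchor the receptors. Of these, 20 were measured. By the probe set with the highest mean, 11 or 12 were tested per comparison. Against saline 0 of 11 were called for kainate and 0 of 11 for nicotine in the neocortex, and 0 of 12 and 0 of 12 in the hippocampus. The counts at an unadjusted p under 0.05 were 0, 1, 2 and 0, next to 5.57%, 9.60%, 14.2% and 5.80% of all probe sets. The median differences over the list for these comparisons were 0.12, 0.04, −0.01 and 0.07, and those over all probe sets lay between 0.0045 and 0.013.

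Among the other receptor subunits, Chrnb2, which forms the common brain receptor together with other subunits, read 70.8 to 256.4 and lay below the filter level by its mean. Chrna1 and Chrnb1, known from muscle, lay below it too. Chrnd, Chrne and Chrng, also known from muscle, were tested and had no call, with nicotine differences in the hippocampus of 0.65, −0.06 and 0.07. Their mean log2 levels, turned back into signal, were 166.8, 592.8 and 142.1. Those of Chrna6 and Chrna7 were 235.9 and 684.5. Whether signals of this size come from the named RNA was not tested. The largest differences of Chrnd, beyond those of any member, were −1.26 ± 0.50 (SE) for kainate against nicotine in the hippocampus and −1.35 ± 0.55 for hippocampus against neocortex with kainate. Their unadjusted p-values were 0.0208 and 0.019 and their limma adjusted p-values 0.297 and 0.108, so neither was called. For Chrng a second, dimmer probe set gave −1.05 for hippocampus against neocortex with nicotine, where the brighter one gave −0.14, and neither was called (limma adjusted p = 0.0951 and 0.909).

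Among the genes that handle acetylcholine, Bche, the related butyrylcholinesterase, read 16.5 to 208.5 and lay below the filter level by its mean. Colq, the collagen tail that anchors acetylcholinesterase at the muscle synapse, differed from saline by −0.25 and −0.17 with nicotine and by 0.05 and −0.36 with kainate (neocortex, hippocampus). Slc44a1, a choline transporter, differed by −0.03 and 0.06 with nicotine and by 0.13 and 0.05 with kainate. None of these was called.

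Ly6h encodes a GPI-anchored protein that is known to hold back nicotinic receptors made of the Chrna7 subunit. It was the gene of the list with a call, in 1 of the 12 comparisons: hippocampus against neocortex with nicotine, where 1 of 12 tested genes of the list and 4.69% of all probe sets were called higher. In the nicotine neocortex its lowest, median and highest signals were 6339.8, 7350 and 9211.5, and in the nicotine hippocampus 8147.9, 9589 and 13525.8. The difference was 0.42 ± 0.13 (SE), with a limma adjusted p of 0.0335, though the groups overlapped. It was called in 10 of 11 alternatives, with median centring of the arrays as the exception (adjusted p = 0.0581, range 0.0130 to 0.0581). With 1 array left out it was called in 6 of 12 fits. The call was lost without nicotine neocortex replicates 3, 4 or 5 and without nicotine hippocampus replicates 2, 5 or 6 (adjusted p from 0.0509 to 0.12, difference 0.33 to 0.42). With saline the region difference was 0.31 ± 0.13 and not called (adjusted p = 0.136), and without saline neocortex replicate 5 it was 0.40 and called (adjusted p = 0.049, in a range of 0.049 to 0.322 with 1 array left out). The regional difference of the nicotine effect was 0.11 ± 0.18 (adjusted p = 0.994).

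Against saline Ly6h had lower means with nicotine in both regions, and none of the tests called it. In the saline neocortex the lowest, median and highest signals were 7648.4, 9588 and 12880.4. Of the 6 nicotine arrays there, 3 lay below all saline arrays, and these were the 3 nicotine neocortex arrays of the smaller hybridization cluster. Saline arrays of the smaller cluster were instead the highest of their groups, at 12880.4 (neocortex) and at 15691.4 and 14133.4 (hippocampus). The nicotine hippocampus arrays of the smaller cluster read 9296.6, 9881.7 and 13525.8. With that cluster as a block the difference was −0.34 in the neocortex and −0.30 in the hippocampus, and the part of the hybridization in them beyond this was not tested. Without the block it was −0.36 ± 0.13 (SE) in the neocortex, −0.25 ± 0.12 in the hippocampus and −0.31 ± 0.09 over both (interval −0.49 to −0.12). The limma adjusted p-values were 0.404, 0.853 and 0.228. Kainate minus saline was −0.02 ± 0.13 in the neocortex and −0.34 ± 0.13 in the hippocampus (adjusted p = 0.208).

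**Figure D5:**
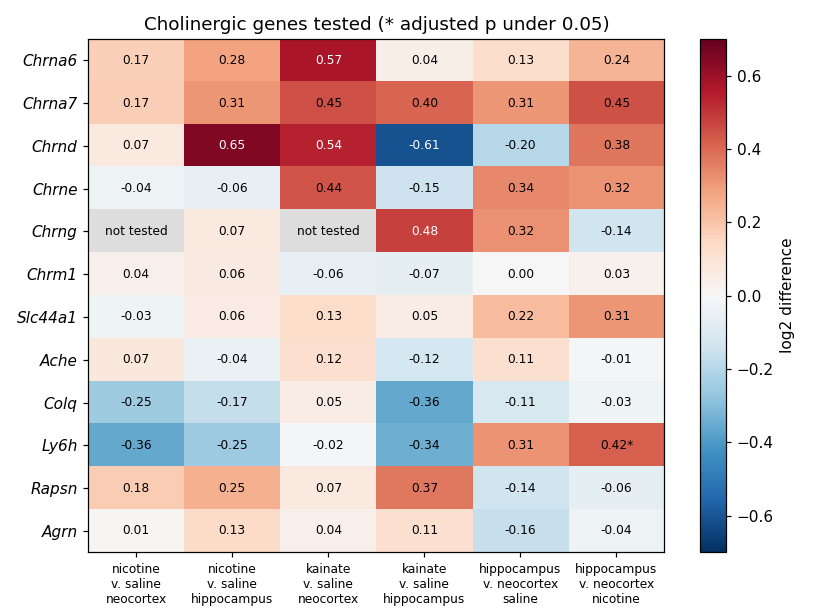
Differences on the scale of log2(signal + 16) for the genes of the cholinergic list that were tested, in 6 comparisons; colour and number give the difference, grey cells were below the level filter, and an asterisk marks a limma adjusted p under 0.05. A single asterisk stands at Ly6h for hippocampus against neocortex with nicotine (0.42).

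The genes whose pattern over the 34 arrays was most like that of each member were named by Pearson's r among 6429 other genes, as a description in which arrays share their scaling and their hybridization. For Chrna7 these were Cel (0.67), Ica1 (0.66), Ptbp2 (0.62), Syn2 (0.60), which encodes a synaptic vesicle protein, and Prkd3 (0.59). Ranks gave less likeness for Cel (Spearman's rho 0.21), Prkd3 (0.25), Ptbp2 (0.33) and Ica1 (0.40), and similar likeness for Syn2 (0.58). For Ache they were Pcolce (0.63), Stk19 (0.60), Taok3 (0.58), the asparagine synthetase Asns (0.56) and the actin-severing protein Cfl1 (0.56). For Chrna6 they were Zc3hc1 (0.54), Mrpl44 (0.52), Csk (0.50), Rabggtb (0.50) and Mtmr14 (0.50), with rho from 0.24 for Csk to 0.47 for Rabggtb. For the Ache genes rho ran from 0.46 to 0.57. The correlations of the deviations from the group means were close to these, from 0.47 to 0.69.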

How the data were processed

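RNA of 34 samples (12 µg of total RNA each, per the labels' protocols) was measured on 1-colour Affymetrix arrays. The authors deposited signal intensities that MAS5 had produced (version not given), per the submitters' processing notes. Trimmed means of the arrays ran from 1000.5 to 1000.6. Array medians ran from 380.7 to 390.9 in the saline hippocampus, 403.1 to 438.6 with kainate and 394.3 to 434.6 with nicotine. Pairs of arrays correlated at 0.916 to 0.969 and 0 pairs were identical. The number of arrays limits the precision, and detection calls were not used here. The annotation gave 1 symbol to 10833 probe sets, several to 396 and none to 1193. Of the single symbols, 10817 were set to the current symbol of their Entrez identifier. The 3 members were matched by the original symbols and the other lists by the updated ones. A gene with several probe sets is given by the one with the highest mean.

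limma 3.58.1 in R 4.3.3 (lmFit, eBayes with an intensity trend) was fitted to log2(signal + 16), with Benjamini-Hochberg adjustment over all tested probe sets. Treatments were compared within the 17 arrays of a region, and regions over all 34 arrays. Which neocortex and hippocampus arrays came from the same mouse is not in the labels, so arrays were treated as independent, and p-values measure the spread between these samples. The scripts were tested on simulated data. The alternatives varied the pseudocount, filter, scaling, array weights, arrays in the fit, the replicate number as a block, left-out arrays and clusters of arrays. Clusters came from all 66 control probe sets and, chosen after seeing the data, from 18 hybridization controls. Same-numbered arrays of the kainate and nicotine hippocampus deviated together (correlations 0.118 to 0.278 in 5 pairs), so the block applies there, where it changed no call of the 3 genes. Named were the members, the called genes, nicotinic subunits and acetylcholine-handling genes of the cholinergic list, and the 5 genes most correlated with each member. The members and lists were chosen with earlier results of these data known.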

Additional observations from a re-analysis of the deposited data

Results flagged for a closer look

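One value stood far from the rest of its group on the signal scale. In the saline hippocampus Chrna7 read 135.7 on 1 array, and the gap to the next array (793.2) was 65.5% of the whole range of the 6. On the signal scale this was the only one of 18 groups (3 genes in 6 groups) with such an array, and chance marks about 1 group in 20. On that array Ache read 2536, the second lowest of its group, and Ly6h 11575.1, below its group's median of 11825. The log2 scale of the differences was not examined in this way, and low arrays stand further apart on it. There the lowest Chrna6 array read 5.92 in the nicotine neocortex, with the next at 7.91. In the saline neocortex it read 6.17, with the next at 7.72.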

How the results depend on the processing

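The 36 differences of Chrna6, Chrna7 and Ache were recomputed under 46 settings, and 0 of the resulting 891 values were called (lowest limma adjusted p 0.0817). One fit gives several of these values, so they are not separate checks. Chrna6 was not tested with the filter at the 50th percentile. The sign changed in 48 of these values, for 16 differences, 42 of them with 1 array left out, and the values that changed were at most 0.29 in size after the change. Median centring lowers every difference of kainate against saline in the hippocampus by 0.11, and every kainate effect between regions by 0.10. It gave −0.071 for Chrna6 in the former and −0.0280 for Ache with nicotine over both regions. Quantile normalization gave −0.085, array weights −0.0444 and the control cluster as a block −0.0030 for Chrna6 in the kainate hippocampus, and array weights 0.0444 for Ache between the nicotine regions. With 1 array left out, differences that changed sign ranged as follows. For kainate against saline in the hippocampus, Chrna6 gave −0.092 to 0.18 and Chrna7 −0.026 to 0.56. For nicotine against saline, Chrna6 gave −0.15 to 0.57 (neocortex), Chrna7 −0.069 to 0.34 (neocortex) and −0.12 to 0.46 (hippocampus), and Ache −0.028 to 0.17 (neocortex), −0.13 to 0.0094 (hippocampus) and −0.037 to 0.061 (both). For kainate against nicotine, Ache gave −0.024 to 0.088 (neocortex) and −0.13 to 0.0058 (hippocampus). Between regions, Chrna6 gave −0.19 to 0.30 with saline and −0.16 to 0.38 with nicotine, and Ache −0.091 to 0.045 with nicotine. For the nicotine effect between regions, Chrna6 gave −0.28 to 0.43 and Chrna7 −0.29 to 0.38, and for the kainate effect Chrna7 gave −0.48 to 0.20. For Ly6h, kainate against saline in the neocortex gave 0.0098 with quantile normalization, 0.018 with the replicate block and −0.082 to 0.068 with 1 array left out, and the kainate regions differed by 0.024 with quantile normalization, 0.080 with array weights and −0.091 to 0.047 with 1 array left out.

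Counts over all probe sets moved in comparisons with few calls and for kainate against saline in the hippocampus. Kainate against saline in the neocortex (1 call) gave 2 with quantile normalization, array weights or the control cluster, and 3 with the replicate block. Kainate against nicotine there (3 calls) gave 1 with median centring or the hybridization cluster, 8 with array weights, 5 with the replicate block, 6 with the control cluster and 1 to 5 with 1 array left out. Kainate against saline in the hippocampus (243 calls) gave 443 with median centring and 323 with the replicate block. Nicotine over both regions (0 calls) gave 7 with the control cluster. The causes were not tested. Outside the kainate and nicotine hippocampus, same-numbered arrays did not all deviate together. Within each region, though, same-numbered arrays correlated more on average than other arrays in every pair of groups. Their mean correlation was 0.085 between the saline and nicotine neocortex, against −0.016 for other arrays. In the hippocampus it was 0.077 between saline and kainate (against −0.015) and 0.082 between saline and nicotine (against −0.016). Between the saline neocortex and saline hippocampus it was −0.019 against 0.0038. What same-numbered arrays share beyond the number was not tested. The replicate block called none of the 36 differences.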
